A study of Arabidopsis thaliana with 26 samples.

Results

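The genes described here are 41 Arabidopsis loci of the last steps of the cell cycle: A and B cyclins, cyclin-dependent and Aurora kinases, MYB3R transcription factors, spindle and spindle checkpoint proteins, the anaphase promoting complex (APC), condensin and cohesin, and kinesins and other proteins of the cell plate. They were chosen by locus code from a list of named cell cycle genes, and 34 of the 41 have a row among the 16255 loci of the deposited table. MYB3R1 has 2 probe sets, so the 34 genes give 35 rows. CYCB1;2, CDKB1;1, MYB3R5, APC11, RUK, TSK and TAN have no row and were not analysed here. By role, probe sets exist for 6 of 7 cyclins, 2 of 4 kinases, 3 of 4 MYB3R factors, 3 of 3 spindle genes, 5 of 6 checkpoint and APC genes, 7 of 8 genes of chromosome structure and segregation and 8 of 9 genes of cytokinesis.

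The study measured expression on 26 arrays in 10 groups of root cells. In the time series, pSCR::GFP plants aged 2 days from germination were moved to medium with the synthetic auxin 2,4-D at 1 µM. Cells positive for green fluorescent protein (GFP) were sorted from cut root tips after 0 h (untreated, 3 arrays) and after 24, 48, 72 and 96 h (2 arrays each). The promoter of SCARECROW (SCR) is active in the endodermis and in the quiescent centre (QC), so a sort with it can hold both. QC cells were sorted with the promoter of WOX5 at 3 days from wild type plants of a separate harvest, from Col-0 wild type grown beside the mutant and from jkd-4, a mutant of the zinc finger gene JACKDAW (3 arrays each). Excised meristems of wild type and of jkd at the same age, which hold many cell types, gave 3 arrays each. The meristem labels name neither the jkd allele nor a reporter, and the protocols describe sorting for QC and meristem together. No untreated SCR cells of the later times were profiled, so 2,4-D and the age of the seedlings cannot be told apart. The labels do not say whether arrays of a group came from separate plantings, so the p-values rest on differences between arrays that may be only technical.

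B-type cyclins with their kinases drive entry into mitosis, and MYB3R factors switch their genes on at that point or keep them off at other times. The spindle checkpoint, with MAD2 and BUB3, holds the APC until chromosomes are attached. APC with its activator CDC20 then releases separase, which cuts cohesin, and kinesins build the phragmoplast, the microtubule array that lays down the plant cell plate. In the root some of these genes, such as B-type cyclins, are known as marks of dividing meristem cells. QC cells divide rarely and mature endodermis cells do not divide. In bulk RNA, fewer cells in mitosis and less transcript per cell cannot be told apart.

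**Figure D1:**
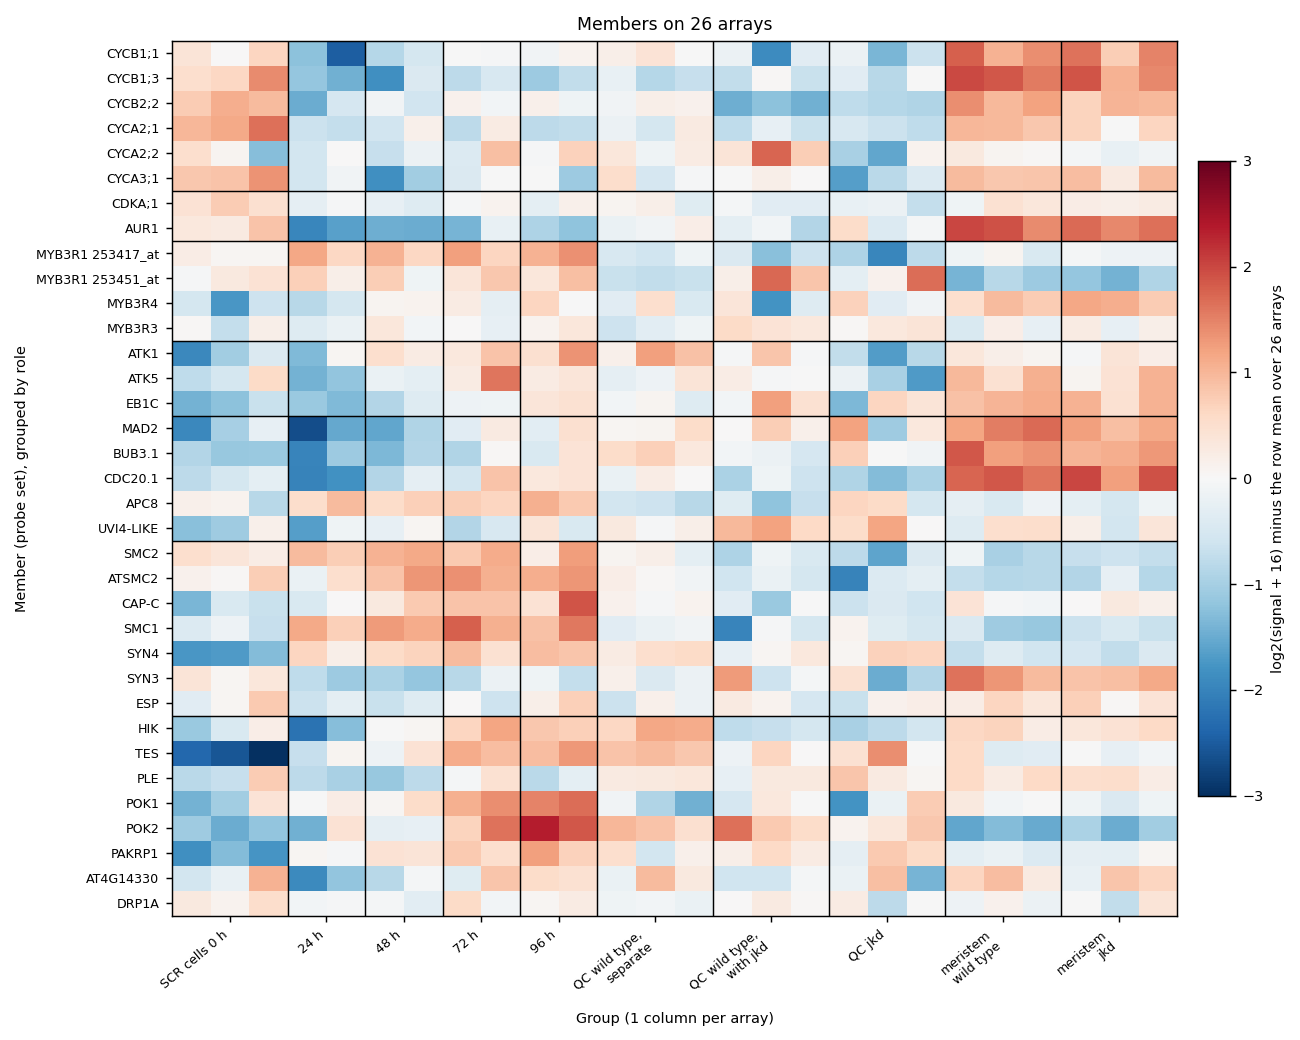
Heat map of the 35 probe sets (rows, grouped by role) on 26 arrays (columns, grouped by time of 2,4-D, QC or meristem). Colour is log2(signal + 16) minus the row's mean over all arrays. CYCB1;1, CYCB1;3 and AUR1 stand low on the 24 h arrays, and 7 of the 15 rows of chromosome and cytokinesis genes have their highest group mean at 96 h. Over the 35 rows, 10 probe sets have their highest group mean in the wild type meristem, 10 at 96 h and none at 24 h. The share of all probe sets highest in each group was not counted.

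Signals are MAS5 intensities on a linear scale, and replicate values are given in the order of their numbers (1, 3 and 5 at 0 h, 2 and 3 at the later times, 1 to 3 elsewhere). The median signal of the 35 probe sets was 69.4, 81.4 and 144.7 at 0 h, then 44.7 and 56.1 at 24 h, 97 and 116 at 48 h, 136.7 and 155.8 at 72 h, and 157 and 188.3 at 96 h. It lay between 76.6 and 130.4 on the 9 QC arrays and between 139.2 and 167.9 on the 6 meristem arrays. The 24 h arrays were thus below all others, and 0 h replicate 5 stood above the other 0 h arrays. That array also had a mean plastid signal of 10.01 on the log2 scale against 7.08 and 7.67, and its part in the results is given below. Across arrays the median of all 16384 probe sets ranged from 57.4 to 102.6. Of 6 markers of the labelled endodermis, 4 lay below all 0 h arrays at 24 h and 5 at 96 h, and their summed signal was 12622 to 21613 at 0 h, 2343 to 2505 at 24 h and 919 to 1417 at 96 h. CASP2, a scaffold protein of the Casparian strip, had mean signals of 5049, 196.6 and 53.2 at these times, MYB36, a regulator of the strip, 968, 1305 and 179.9, and SCR itself 519.2, 627 and 868.7. WOX5 and PLT2, also listed as QC markers, have no row. Of the other 6, 2 lay above all 0 h arrays at 24 h and 5 at 96 h. Their sum went from 269 to 416 at 0 h to 518 to 658 at 24 h and 2530 to 3820 at 96 h. At 96 h TEL1 (64.75) and PLT1 (239.85) had means below the separate QC harvest (319 and 691), and BBM, AGL42, ERF115 and MYB56 above it. The share of all probe sets that stood apart from 0 h in this way was not counted. BBM had means of 22.0 at 0 h and 920.9 at 96 h, while AGL42, with 118.0 and 140.3, overlapped. Markers of other cell types moved too: at 0 h, 24 h and 96 h the means were 18.7, 171.6 and 226.1 for the phloem gene OPS, 5.57, 35.0 and 39.5 for the xylem gene TMO5, 100.5, 27.6 and 1.65 for the epidermis gene MYB23 and 174.9, 24.4 and 10.4 for the root hair gene COBL9. The sum of the 2 root cap markers was 141 to 301 at 0 h, 80.2 to 87.8 at 24 h and 277 to 335 at 96 h. The part of these cell types in the members' differences was not tested.

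Differences are in log2 units of (signal + 16), with the standard error of the limma fit after ±, and a gene passed at a Benjamini-Hochberg adjusted p under 0.05 over 11469 tested probe sets. Against 0 h, 15 of 34 tested member probe sets passed at 24 h, 5 higher and 10 lower, where 48.1% of all probe sets passed (20.7% higher, 27.5% lower). At 48 h it was 14 (7 higher, 7 lower) against 49% of all (21.8% higher, 27.2% lower). At 72 h it was 16 (13 higher, 3 lower) against 49.3% (23% higher, 26.4% lower), and at 96 h 18 (15 higher, 3 lower) against 52.4% (24.7% higher, 27.7% lower). With quantile normalization the split was 7 higher and 6 lower at 24 h and 11 higher and 4 lower at 48 h. With it the share of higher calls among all calls went from 42.96% to 53.41% at 24 h and from 44.51% to 54.28% at 48 h. The falls of HIK, AT4G14330, SYN3 and CYCA3;1 at 24 h did not pass then, nor those of CYCB1;1, CYCB2;2 and SYN3 at 48 h. The share that passed was thus near that of all probe sets at each time, while more of the calls were higher at 72 h and 96 h than at 24 h. In the order of the times, the members' median difference was -0.16, 0.19, 0.65 and 0.79, and that of all tested probe sets was -0.21, -0.16, -0.09 and -0.11. In all, 24 of the 34 passed at 1 or more times: 14 only higher, 9 only lower and HIK in both directions. PAKRP1, SYN4, SMC1 and TES were higher at all 4 times, and CYCA3;1, AUR1 and CYCB1;3 lower at all 4. Without 0 h replicate 5 the counts were 15, 15, 17 and 20. Over all probe sets 5670, 5815, 5797 and 6152 passed then, in place of 5522, 5623, 5659 and 6013. Fewer members passed at 24 h without 24 h replicate 2, at 48 h without either 48 h array and at 72 h without 72 h replicate 3. Fewer of all probe sets passed in each of these cases too. Organellar transcripts moved too: plastid genes by a median of 1.70 at 24 h and 1.30 at 96 h and mitochondrial genes by 1.43 and 0.94. Their part in the members' differences was not tested.

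**Figure D2:**
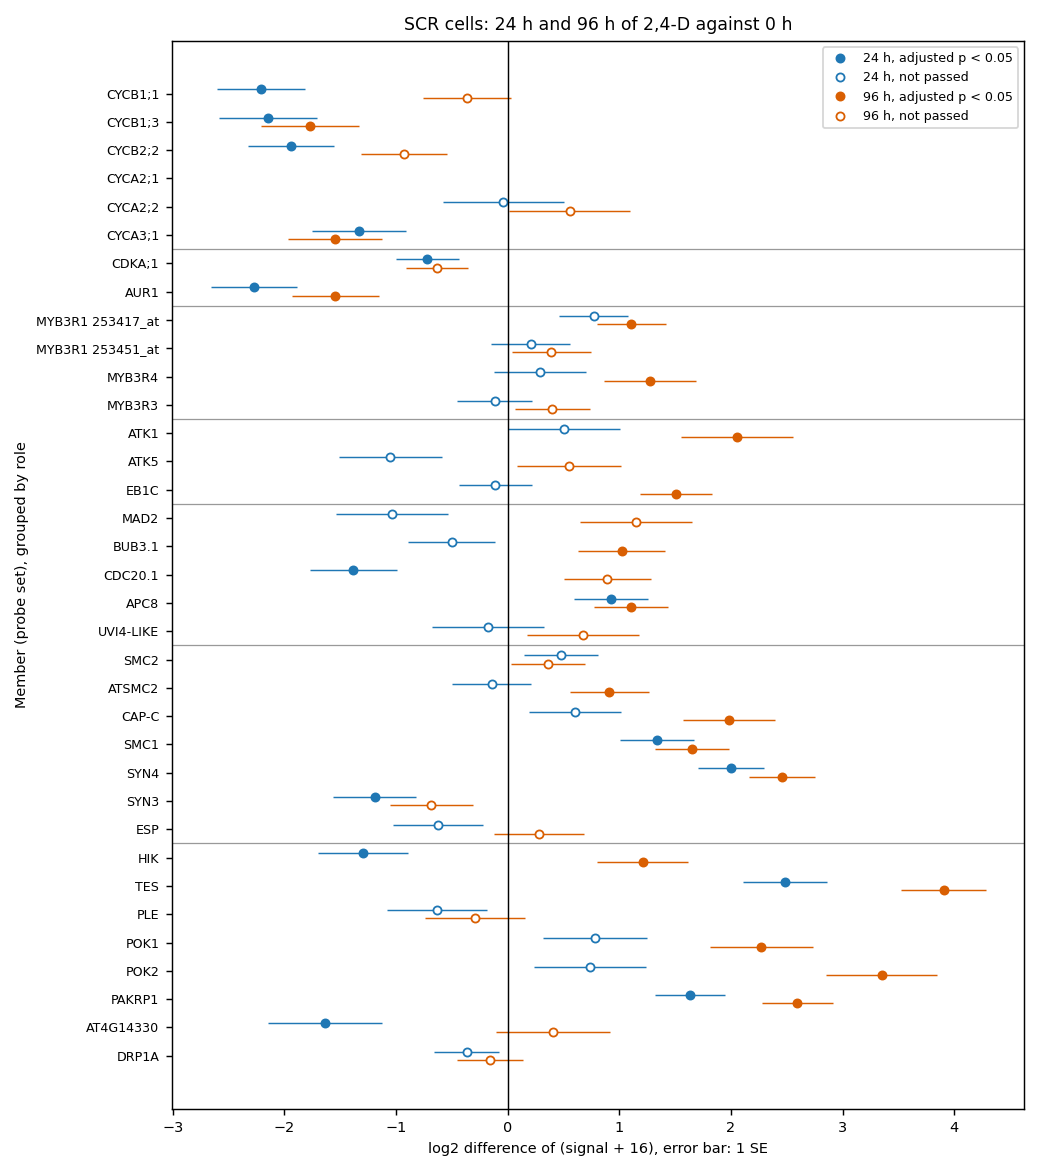
Log2 differences of the members between 0 h and 24 h (blue) and between 0 h and 96 h (orange), grouped by role, with error bars of 1 standard error. Filled points passed at an adjusted p under 0.05. The cyclins and kinases lie at or left of 0 at 24 h, and TES, POK2, PAKRP1 and SYN4 lie farthest right at 96 h with differences from 2.46 to 3.90.

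Of the 5 tested cyclins, 4 fell at each of 24 h and 48 h and 2 at each of 72 h and 96 h, and none rose. CYCB1;1 (AT4G37490), a B-type cyclin whose transcript marks G2 and early mitosis, had signals of 117, 87 and 144 at 0 h, 27.3 and 2.2 at 24 h, 40.2 and 54.7 at 48 h, 85.3 and 83.7 at 72 h and 77.7 and 92.4 at 96 h. The 24 h arrays were below every other array of the time series, and 1 of the 96 h arrays reached into the 0 h range. It fell by 2.21 ± 0.39 at 24 h (adjusted p = 0.000538), and at 96 h its difference from 0 h was -0.37 ± 0.39 (adjusted p = 0.454). With the signal of 2.2 near background, the difference at 24 h lay between -3.59 and -1.20 over the alternative settings. CYCB1;3 (AT3G11520), of the same subclass, had 127, 138 and 255 at 0 h, 28.8 and 21.3 at 24 h, 12 and 58.6 at 48 h, 42.5 and 55.7 at 72 h and 31 and 44.3 at 96 h. All 8 treated arrays stayed below all 0 h arrays, with differences of -2.15 ± 0.44 at 24 h (adjusted p = 0.00138) and -1.77 ± 0.44 at 96 h (adjusted p = 0.00421). CYCA3;1 (AT5G43080), an A-type cyclin, had 93.6, 97.6 and 145 at 0 h, 26.9 and 42.4 at 24 h, 1.7 and 14.5 at 48 h, 31 and 46.8 at 72 h and 46.8 and 13.7 at 96 h. No treated array reached the 0 h range, and it fell at all 4 times, with differences of -1.33 ± 0.42, -2.44 ± 0.42, -1.21 ± 0.42 and -1.54 ± 0.42 in order. At 48 h, where its signals were near background, the difference lay between -4.10 and -1.28 over the alternative settings. CYCB2;2, a B-type cyclin, fell by 1.94 ± 0.38 at 24 h and 1.28 ± 0.38 at 48 h. CYCA2;2 was at -0.04 ± 0.54 and 0.56 ± 0.54 at 24 h and 96 h and did not pass. CYCA2;1 was too weak to be tested here, with 41.7, 47.4 and 74.7 at 0 h and at most 18.3 on any treated array. The falls of CYCB1;1, CYCB1;3 and CYCB2;2 at 24 h passed under all 12 alternative settings tried, while that of CYCA3;1 was lost without 24 h replicate 2. At 48 h the falls of CYCB1;1, CYCB2;2 and CYCB1;3 were each lost without at least 1 of the 48 h arrays, and that of CYCB1;1 also without 0 h replicate 1 or 5. The later calls of CYCA3;1 were lost at 72 h without 0 h replicate 5 or either 72 h array and at 96 h without 96 h replicate 3, and that of CYCB1;3 at 72 h without 72 h replicate 2.

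Both kinases fell at 24 h and 48 h. AUR1 (AT4G32830), an Aurora kinase of the mitotic spindle and cell plate, had signals of 169, 163 and 254 at 0 h, 22.4 and 32 at 24 h, 37.9 and 37.1 at 48 h, 40.3 and 112 at 72 h and 63 and 48.3 at 96 h. Every treated array lay below every 0 h array. AUR1 fell by 2.27 ± 0.39 at 24 h (adjusted p = 0.000386). Its later differences from 0 h were -1.96 ± 0.39 at 48 h, -1.29 ± 0.39 at 72 h and -1.54 ± 0.39 at 96 h (adjusted p = 0.0045). The fall at 72 h was lost without 72 h replicate 2. CDKA;1, the kinase that acts through the whole cycle, fell by 0.72 ± 0.28 at 24 h and 0.88 ± 0.28 at 48 h, and leaving out 0 h replicate 3 or either array of the treated time ended each call. Of the 4 MYB3R probe sets none passed at 24 h and 2 rose at 96 h. MYB3R4, an activator of mitotic genes, rose by 1.06 ± 0.41 at 48 h and 1.27 ± 0.41 at 96 h, and both calls were lost without 0 h replicate 3, that at 48 h without either 48 h array and that at 96 h without 96 h replicate 2. For MYB3R1, which can act as activator and as repressor, probe set 253417_at rose by 0.82 ± 0.31 at 72 h and 1.11 ± 0.31 at 96 h, whereas 253451_at was at 0.39 ± 0.35 at 96 h and did not pass. The call at 72 h was lost without any 1 of the 0 h arrays or 72 h replicate 2, and that at 96 h without 96 h replicate 3. MYB3R3, a repressor, passed in no comparison of the study.

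Among the 3 spindle genes, none passed at 24 h and 2 rose at 72 h and at 96 h. EB1C (AT5G67270), a protein of growing microtubule ends in the spindle, had signals of 62, 72.9 and 115 at 0 h, 80.7 and 67.5 at 24 h, 97 and 143 at 48 h, 171 and 175 at 72 h and 251 and 269 at 96 h. The 72 h and 96 h arrays lay above every earlier array, with a rise of 0.96 ± 0.32 at 72 h and 1.51 ± 0.32 at 96 h (adjusted p = 0.0016). ATK1, a minus-end directed kinesin of the spindle poles, rose by 1.51 ± 0.50 at 48 h and 2.05 ± 0.50 at 96 h, from signals of 2.1, 17.6 and 35.5 at 0 h that are near background. ATK5 (AT4G05190), its relative at the spindle midzone, had 27.6, 35.9 and 94.2 at 0 h, 12 and 17 at 24 h, 49.3 and 44.7 at 48 h, 71.6 and 211 at 72 h and 72.2 and 80.1 at 96 h. The 24 h arrays were the lowest, the 72 h arrays differed widely, and no time passed against 0 h. The rise of EB1C at 96 h passed under all 12 alternatives, while that at 72 h was lost without 0 h replicate 1 or 3 or either 72 h array. That of ATK1 was lost at 96 h without 96 h replicate 3 and at 48 h without 0 h replicate 1 or either 48 h array.

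Of 5 checkpoint and APC genes, 1 rose and 1 fell at 24 h and 2 rose at 96 h. CDC20.1 (AT4G33270), the activator of the APC, had signals of 132, 160.3 and 193 at 0 h, 47.5 and 55.8 at 24 h, 123 and 197 at 48 h, 158 and 444 at 72 h and 301 and 321 at 96 h. Both 24 h arrays were below and both 96 h arrays above all 0 h arrays. It fell by 1.38 ± 0.39 at 24 h (adjusted p = 0.00966) and stood at 0.89 ± 0.39 at 96 h (adjusted p = 0.0664). The fall was lost without 24 h replicate 2. Its probe set is named as one that may also bind transcripts of related genes. MAD2 (AT3G25980), the checkpoint protein that holds CDC20, had 34.6, 80.2 and 146 at 0 h, 14.4 and 50.6 at 24 h, 49.4 and 87.7 at 48 h, 137 and 218 at 72 h and 139.8 and 252 at 96 h. The 0 h arrays spread widely and overlapped every treated time, and no time passed against 0 h. BUB3.1 (AT3G19590), another checkpoint protein, had 180, 146 and 151 at 0 h, 74.1 and 152 at 24 h, 126 and 179 at 48 h, 177 and 353 at 72 h and 247 and 462 at 96 h. Both 96 h arrays were above 0 h, a rise of 1.02 ± 0.39 (adjusted p = 0.04) that was lost without any 1 of the 0 h arrays or without 96 h replicate 3. APC8 (AT3G48150), a subunit of the complex, had 309, 300.4 and 148 at 0 h, 407 and 546 at 24 h, 415 and 464 at 48 h, 471 and 439 at 72 h and 592 and 485 at 96 h. All treated arrays were above all 0 h arrays, and APC8 rose by 0.93 ± 0.33 at 24 h, 0.88 ± 0.33 at 72 h and 1.11 ± 0.33 at 96 h. The calls at 24 h and 72 h were lost without 0 h replicate 5 or either array of the treated time, and that at 96 h without 96 h replicate 2. UVI4-LIKE, an inhibitor of the APC, was at -0.17 ± 0.50 at 24 h and 0.68 ± 0.50 at 96 h and did not pass.

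Genes of chromosome structure went in both directions at 24 h, with 2 of 7 higher and 1 lower, and at 96 h 4 were higher and none lower. SYN4 (AT5G16270), a cohesin subunit of the kleisin family, had signals of 144, 149.5 and 203 at 0 h, 828 and 596 at 24 h, 784 and 843 at 48 h, 1031 and 719 at 72 h and 1000.1 and 944 at 96 h. Even the lowest treated array was above the highest 0 h array, and the rise was 2.00 ± 0.29 at 24 h (adjusted p = 0.000126) and 2.46 ± 0.29 at 96 h (adjusted p = 1.86e-05). SMC1 (AT3G54670), a core cohesin subunit that the RefSeq table lists as TTN8, had 195, 238 and 158 at 0 h, 600.3 and 445 at 24 h, 663 and 591 at 48 h, 958 and 569 at 72 h and 504 and 827 at 96 h. It too was higher on every treated array, by 1.34 ± 0.33 at 24 h and 1.65 ± 0.33 at 96 h, and the 24 h call was lost without 24 h replicate 2. CAP-C (AT5G48600), a condensin subunit that the RefSeq table lists as SMC3, had 75.1, 155 and 132 at 0 h, 154 and 220.5 at 24 h, 272 and 389.7 at 48 h, 409.5 and 407 at 72 h and 300.5 and 849 at 96 h. From 48 h on all arrays were above 0 h, and it rose by 1.37 ± 0.41 at 48 h, 1.68 ± 0.41 at 72 h and 1.99 ± 0.41 at 96 h, with a wide gap between the 96 h arrays. The call at 48 h was lost without 0 h replicate 1 or 48 h replicate 3. ATSMC2, another condensin gene, rose by 0.91 ± 0.35 at 96 h, a call lost without 0 h replicate 1 or 3 or either 96 h array. SYN3, a kleisin known for its role in meiosis, fell by 1.19 ± 0.37 at 24 h and 1.32 ± 0.37 at 48 h, each lost without replicate 3 of its time. SMC2 and the separase gene ESP passed at no time.

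Of the 8 genes of cytokinesis, 2 rose and 2 fell at 24 h, 2 rose at 48 h, and 5 rose at 72 h and at 96 h, when none was lower. TES (AT3G43210), a kinesin needed for the cell plates of male meiosis and a close relative of HIK, had signals of 42.6, 34.6 and 11.2 at 0 h, 170.1 and 299.6 at 24 h, 255 and 387 at 48 h, 633 and 553 at 72 h and 553 and 720.1 at 96 h. Each treated array was above all of 0 h, and TES rose by 2.49 ± 0.38 at 24 h (adjusted p = 0.000158) and 3.90 ± 0.38 at 96 h (adjusted p = 3.6e-06). PAKRP1 (AT4G14150), a kinesin of the phragmoplast midline, had 27.3, 47.9 and 30 at 0 h, 146 and 135 at 24 h, 196 and 189.8 at 48 h, 254 and 205 at 72 h and 353 and 235 at 96 h. The groups did not overlap with 0 h at any time, and the rise was 1.64 ± 0.31 at 24 h and 2.60 ± 0.31 at 96 h (adjusted p = 2.04e-05). HIK (AT1G18370), the kinesin that activates the kinase cascade for phragmoplast growth, had 50.9, 89.4 and 150 at 0 h, 15 and 43.3 at 24 h, 127 and 135 at 48 h, 210.3 and 313 at 72 h and 236 and 219 at 96 h. It was lowest at 24 h and above every 0 h array from 72 h on. HIK fell by 1.30 ± 0.41 at 24 h (adjusted p = 0.0173) and rose by 1.37 ± 0.41 at 72 h and 1.21 ± 0.41 at 96 h (adjusted p = 0.0222). The fall was lost without 24 h replicate 2 and with quantile normalization. The rise at 72 h was lost without 0 h replicate 1 or 72 h replicate 3, and that at 96 h without 0 h replicate 1 or either 96 h array.

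The kinesins POK1 and POK2, which keep the future division plane marked, rose late. POK2 (AT3G19050) had 8.8, 2.7 and 7 at 0 h, 3.1 and 54.5 at 24 h, 27.3 and 28.2 at 48 h, 67.1 and 147 at 72 h and 249.8 and 174 at 96 h. Its 0 h signals were near background, and it rose by 2.40 ± 0.50 at 72 h and 3.35 ± 0.50 at 96 h (adjusted p = 0.000104). The size of the rise at 96 h depends on the pseudocount and lay between 1.96 and 4.98 over the alternatives. POK1 (AT3G17360) had 8.2, 15.6 and 70.8 at 0 h, 48.3 and 59.4 at 24 h, 51.5 and 79.7 at 48 h, 120 and 154 at 72 h and 168 and 192 at 96 h, a rise of 1.91 ± 0.46 at 72 h and 2.27 ± 0.46 at 96 h. Here 0 h replicate 5 stood above the 24 h arrays, and all arrays from 72 h on stood above it. AT4G14330, a listed locus with no symbol in the RefSeq table, had 33.6, 45.8 and 134 at 0 h, 3.3 and 15.9 at 24 h, 24.8 and 53.2 at 48 h, 40.1 and 113 at 72 h and 90.2 and 82.5 at 96 h. It fell by 1.64 ± 0.51 at 24 h, a call lost without 24 h replicate 2, and was back within the 0 h range by 72 h. PLE, which links microtubules in the phragmoplast, and DRP1A, a dynamin-related protein of the cell plate, passed at no time.

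**Figure D3:**
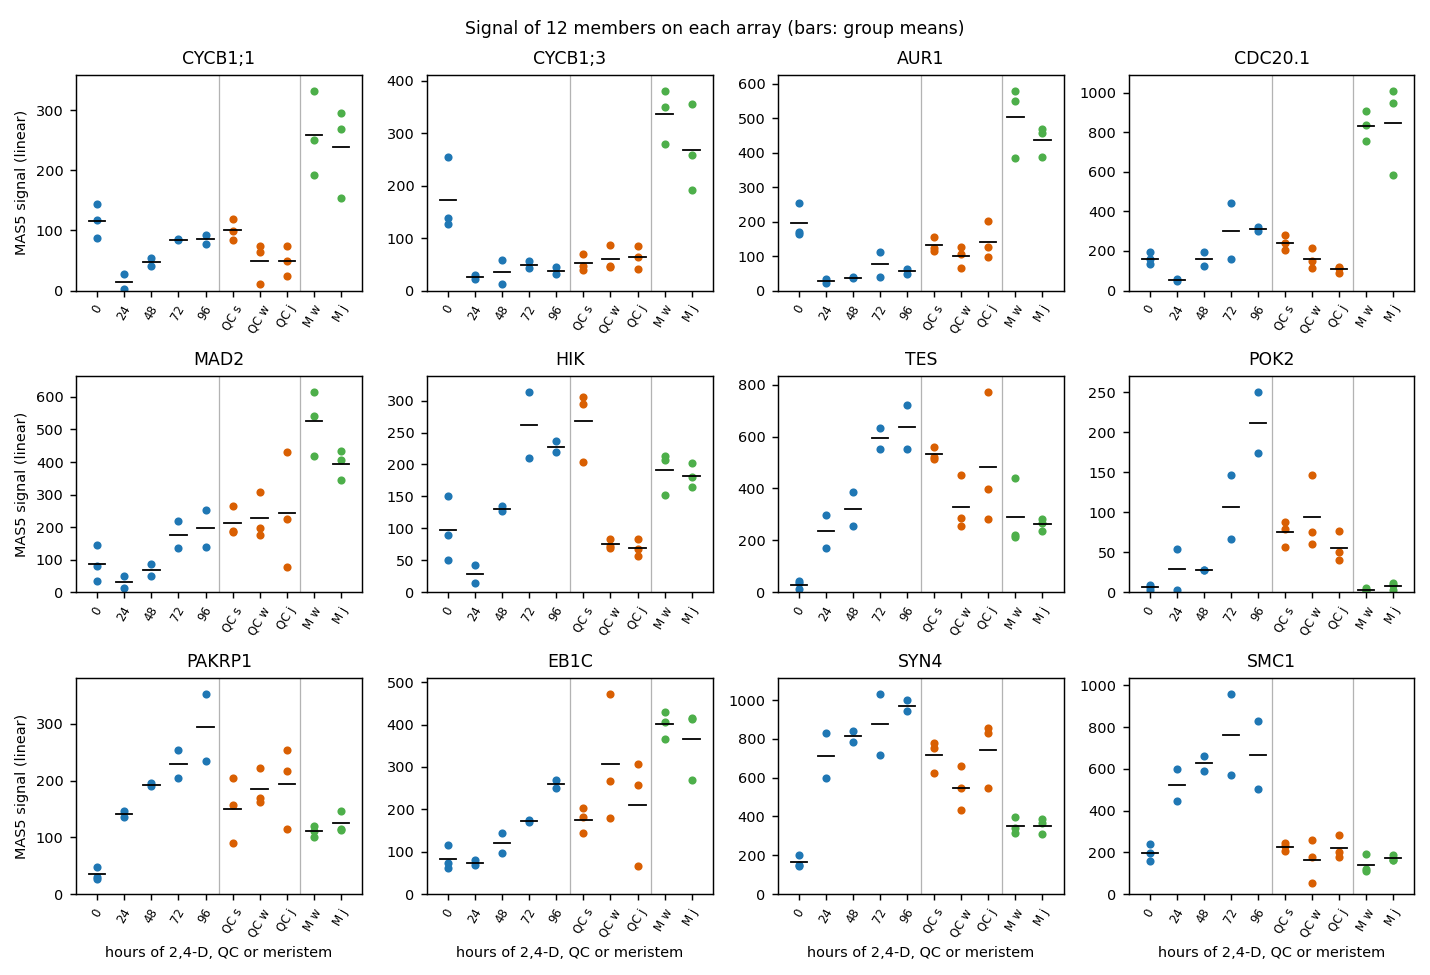
MAS5 signal on a linear scale of 12 members on each of 26 arrays, with group means as bars. The horizontal axis gives hours of 2,4-D, QC (s, separate harvest; w, wild type grown with jkd; j, jkd) and meristem (M w, wild type; M j, jkd). CYCB1;1, AUR1 and CDC20.1 dip at 24 h and are highest in the meristem, while POK2, with a mean of 3.1 in the wild type meristem, reaches 211.9 at 96 h.

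Within the treated times the movement was upwards. Between 24 h and 96 h, a comparison that does not use the 0 h level, 6 of 34 member probe sets rose and none fell, where 3.86% of all probe sets passed (1.97% higher, 1.89% lower). At an unadjusted p under 0.05 the count was 17, and 32 of the 34 differences were above 0. The shares of all probe sets at an unadjusted p under 0.05 and above 0 were not counted. The members' median was 0.93 beside 0.09 for all tested probe sets. The 6 were POK2 (2.61 ± 0.55, adjusted p = 0.0168), HIK (2.51 ± 0.44, adjusted p = 0.00769), CDC20.1 (2.28 ± 0.42, adjusted p = 0.00973), MAD2 (2.18 ± 0.55, adjusted p = 0.0424), CYCB1;1 (1.84 ± 0.43, adjusted p = 0.0301) and EB1C (1.62 ± 0.35, adjusted p = 0.0219). They are a pair of cytokinesis kinesins, the APC activator, a checkpoint protein, a B-type cyclin and a spindle protein. With 2 arrays at each time these calls rest on single arrays: none passed without 24 h replicate 2 or without 96 h replicate 2, and 1 without 96 h replicate 3. Of all 11469 probe sets only 14, 119 and 174 passed then. Without 0 h replicate 5, which enters only the estimate of the spread, 11 members passed, and the calls over all 11469 probe sets went from 443 to 801.

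A linear trend over the 8 arrays from 24 h to 96 h uses all treated times. By that test 13 of 34 rose per 24 h and none fell, where 8.95% of all probe sets passed (4.97% higher, 3.98% lower). Of the 34 slopes 33 were above 0, and the share of all probe sets with a slope above 0 was not counted. The median slope was 0.29 per 24 h beside 0.03 for all. POK2 rose by 0.93 ± 0.17 per 24 h, HIK by 0.84 ± 0.16, MAD2 by 0.78 ± 0.15 and CDC20.1 by 0.75 ± 0.14. Slopes of the other 9 lay between 0.31 for PAKRP1 and 0.68 for AT4G14330, and these were CYCB1;1, ATK5, EB1C, POK1, BUB3.1, TES, CAP-C, PAKRP1 and AT4G14330. By role, 6 of 8 cytokinesis genes, 3 of 5 checkpoint and APC genes, 2 of 3 spindle genes, 1 of 5 cyclins and 1 of 7 chromosome genes rose, with no kinase and no MYB3R probe set. AUR1 had a slope of 0.29 ± 0.14 (adjusted p = 0.223), and CYCB1;3 of 0.16 ± 0.15 (adjusted p = 0.556). The slopes of EB1C, CDC20.1, POK2, MAD2, POK1 and HIK passed under all 14 alternatives. Without 24 h replicate 2, 7 members passed, and 390 of all probe sets in place of 1026. That of PAKRP1 passed under 4 of the 14 and was lost without any 1 of 7 of the 8 arrays, and those of ATK5 and CAP-C passed under 6 and were each lost without any 1 of 6 arrays. The slopes of TES and AT4G14330 were lost without 24 h replicate 2, that of BUB3.1 without 24 h replicate 2 or 96 h replicate 3, and that of CYCB1;1 without 24 h replicate 3. Plastid and mitochondrial genes had medians of -0.48 and -0.56 between 24 h and 96 h, and their part in the members' differences was not tested.

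The title of the series names a change from endodermis towards QC, so each time was also set beside sorted QC cells of the separate harvest. At 0 h, 15 of 34 member probe sets differed from the QC, 5 higher and 10 lower, where 51.3% of all passed (25.5% higher, 25.7% lower). The count was 19 at 24 h (5 higher, 14 lower) against 31.7% of all (12.3% higher, 19.3% lower) and 11 at 48 h (6 higher, 5 lower) against 30.6% (12.9% higher, 17.7% lower). It was 7 at 72 h, all higher, against 25% (10.8% higher, 14.2% lower) and 10 at 96 h (9 higher, 1 lower) against 30.3% (13.8% higher, 16.5% lower). From 0 h to 96 h, the members' median difference from the QC was -0.22, -0.65, -0.34, 0.09 and 0.31, and that of all tested probe sets was 0.03, -0.10, -0.07, -0.02 and 0.01. All these comparisons share the same 3 QC arrays. With quantile normalization the split was 6 higher and 8 lower at 24 h and 7 higher and 2 lower at 48 h. The share of higher calls among all calls then went from 38.87% to 48.68% at 24 h and from 42.17% to 50.58% at 48 h. Counts moved with single arrays. Fewer members and fewer of all probe sets passed at 24 h without 24 h replicate 2, at 48 h without either 48 h array and at 96 h without 96 h replicate 3. Without QC replicate 2 or 3 the count at 48 h was 7 or 6 (2622 or 2574 over all probe sets, in place of 3510). At 96 h it was 6 without either (2647 or 2652 over all, in place of 3472).

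At 24 h the genes below the QC included HIK (-2.71 ± 0.38), MAD2 (-2.32 ± 0.46), BUB3.1 (-2.07 ± 0.36), CYCB1;1 (-2.04 ± 0.37), CDC20.1 (-1.92 ± 0.36) and AUR1 (-1.76 ± 0.36). At 96 h HIK was at -0.20 ± 0.38, MAD2 at -0.14 ± 0.46, BUB3.1 at -0.54 ± 0.36, CYCB1;1 at -0.20 ± 0.37 and CDC20.1 at 0.35 ± 0.36, and none of these passed. AUR1 alone was lower than the QC at 96 h, by -1.03 ± 0.36 (adjusted p = 0.0379), a call lost without any 1 of the 5 arrays compared. Higher than the QC at 96 h were POK1 (2.41 ± 0.48), APC8 (1.59 ± 0.30), SMC1 (1.45 ± 0.30), POK2 (1.32 ± 0.46), ATSMC2 (1.16 ± 0.33), CAP-C (1.09 ± 0.38), PAKRP1 (0.93 ± 0.33) and both probe sets of MYB3R1 (1.62 ± 0.29 and 1.31 ± 0.32). APC8 and SMC1 were higher than the QC at 24, 48, 72 and 96 h, and these calls passed under all 13 alternatives except that of SMC1 at 24 h without 24 h replicate 2. At 96 h the call of POK2 was also lost without any 1 of the 5 arrays compared. That of PAKRP1 was lost without 96 h replicate 2 or QC replicate 2 or 3. That of CAP-C was lost without 96 h replicate 3 or any 1 of the QC arrays. Those of ATSMC2 and 253451_at of MYB3R1 were lost without 96 h replicate 3. Against the wild type QC arrays grown with jkd, 253451_at of MYB3R1 had differences below 0 at every time, such as -0.28 at 96 h (adjusted p = 0.666). HIK and CYCB1;1 at 24 h and POK2, PAKRP1 and AUR1 at 96 h did not pass against these arrays.

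QC cells were also compared with the whole meristem, the zone of dividing cells. In wild type, 21 of 35 member probe sets differed, 6 higher and 15 lower in the QC, where 58.3% of all probe sets passed, 27% higher and 31.3% lower. The members' median was -0.26 beside -0.08 for all. Sorted protoplasts stand here against unsorted tissue, and the plastid and mitochondrial medians were 1.92 and 2.20 higher in the QC arrays, so tissue and sorting cannot be told apart. The values of the 2 sets also carry different numbers of decimals: 1 for the separate QC harvest, as for the time series, and 2 for the meristem and all other QC arrays. With the wild type QC arrays grown with jkd in their place, chosen after seeing the data, 14 of 34 passed, 2 higher and 12 lower, against 49.6% of all.

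**Figure D4:**
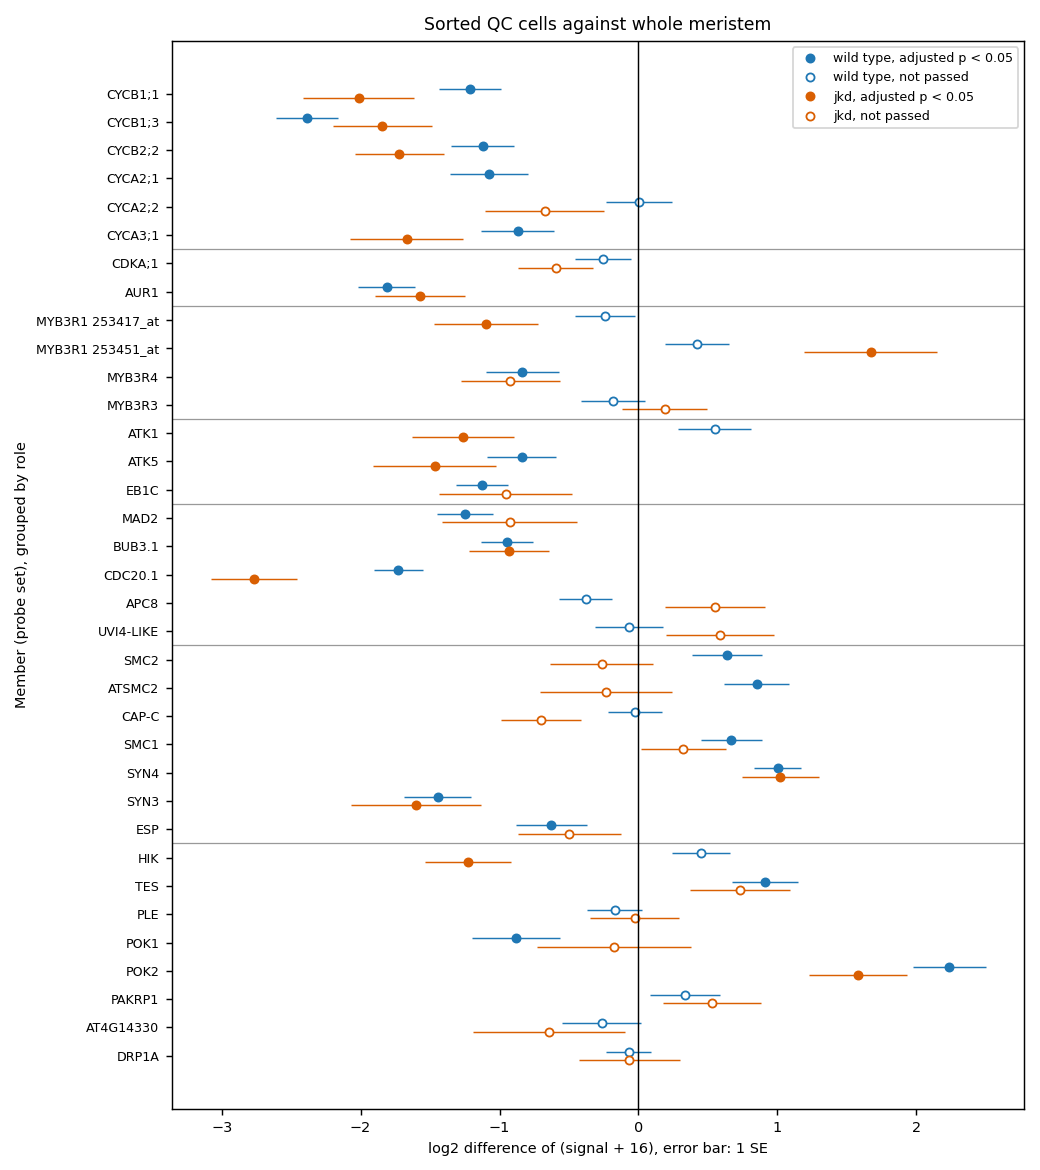
Log2 differences of the members between sorted QC cells and whole meristem in wild type (blue, separate QC harvest) and in jkd (orange), with error bars of 1 standard error. Filled points passed at an adjusted p under 0.05. CYCB1;3, AUR1, CDC20.1 and CYCB1;1 lie left of 0 in both genotypes and POK2 and SYN4 right of it. HIK lies at 0.45 ± 0.21 in wild type, which did not pass, and at -1.23 ± 0.31 in jkd. With the wild type QC arrays grown with jkd, not drawn here, HIK was at -1.17.

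Of the 6 cyclins tested, 5 were lower in the QC. CYCB1;3 had 69.9, 39.9 and 46.8 in the separate QC harvest, 44.1, 86.8 and 47.1 in the QC grown with jkd and 382, 350.4 and 279 in the wild type meristem. Neither set of QC arrays reached the meristem, and it was lower by 2.39 ± 0.22 (adjusted p = 7.65e-07). CYCB1;1 had 98.4, 118 and 84.7, 73.4, 11.5 and 64.3 and 333, 192 and 251 in the same order, and was lower by 1.21 ± 0.22 (adjusted p = 0.000344). CYCA3;1 had 74.4, 28.7 and 45.3, 46.8, 54.6 and 47.4 and 106, 94.7 and 95.8, and was lower by 0.87 ± 0.26. CYCB2;2 and CYCA2;1 were lower by 1.12 ± 0.23 and 1.07 ± 0.28. AUR1 had 114, 122 and 156, 105, 126 and 65 and 580.2, 549 and 384, without overlap, and was lower by 1.81 ± 0.21 (adjusted p = 4.72e-06).

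Of the checkpoint and spindle genes, CDC20.1 had 204, 280.5 and 239.9 in the separate QC harvest, 116, 218 and 150.3 in the QC grown with jkd and 836, 909 and 757 in the wild type meristem. Every meristem array was above every array of either QC set, and the difference was -1.73 ± 0.18 (adjusted p = 1.72e-06). MAD2 had 184, 187 and 264, 177, 308 and 197 and 419, 541 and 614, and BUB3.1 had 509, 570.2 and 433, 321, 304 and 238 and 1284, 825 and 890.4. Both were lower in the QC, by 1.25 ± 0.20 and 0.95 ± 0.19. EB1C had 182, 203 and 143, 181, 472 and 267 and 366, 407 and 431. It was lower by 1.13 ± 0.19 in the separate harvest, but the QC arrays grown with jkd overlapped the meristem and did not pass. ATK5 had 46, 51.1 and 81.1, 70.8, 56.7 and 57.3 and 130.2, 86.1 and 139, lower by 0.84 ± 0.25. APC8, with 184, 173 and 147, 210.2, 110.0 and 163 and 227, 196 and 247, did not pass (-0.38 ± 0.19). MYB3R4, SYN3, ESP and POK1 were lower as well, by 0.63 for ESP to 1.45 for SYN3, and the call of POK1 was lost without each of 5 of the 6 arrays in turn. That of ESP was lost without each of 4 arrays, that of MYB3R4 without each of 3, and that of ATK5 without meristem replicate 3. With the QC arrays grown with jkd, SYN3 (-1.09 ± 0.44, adjusted p = 0.0638), ESP (-0.45 ± 0.31, adjusted p = 0.259) and POK1 (-0.12 ± 0.32, adjusted p = 0.768) did not pass, and MYB3R4 was again lower.

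A few members were higher in the QC. POK2 had 88.2, 79 and 57.2 in the separate QC harvest, 147, 74.7 and 60.9 in the QC grown with jkd, 1.72, 5.37 and 2.27 in the wild type meristem and 11, 2.56 and 9.51 in the jkd meristem. Meristem signals were at background, and the difference in wild type was 2.24 ± 0.26 (adjusted p = 6.4e-06). SYN4 had 626, 750.5 and 780.2, 436, 545 and 659.9 and 315, 395 and 343 in the first 3 of these groups, and was higher by 1.00 ± 0.17. SMC1 had 207, 229 and 246, 55.2, 259 and 179 and 190.3, 119 and 112, and was higher by 0.67 ± 0.22 only in the separate harvest. TES had 523, 561 and 512, 255, 450.0 and 286 and 439, 213 and 221, and was higher by 0.91 ± 0.24, although 1 meristem array lay within the range of the QC arrays grown with jkd. ATSMC2 and SMC2 were higher by 0.85 ± 0.24 and 0.63 ± 0.25. The call of SMC2 was lost without QC replicate 1 or 2 or meristem replicate 2 or 3, and that of SMC1 without QC replicate 3 or meristem replicate 2 or 3. With the QC arrays grown with jkd, POK2 was again higher and SYN4, TES, SMC1, ATSMC2 and SMC2 did not pass. MYB3R1 253451_at was higher with those arrays, by 2.01 ± 0.38 (adjusted p = 0.00179), but did not pass with the separate harvest. PAKRP1 had 205, 90.5 and 157, 162, 222 and 170.0 and 112, 120.2 and 101, CAP-C had 239, 213 and 238, 171, 92.9 and 218 and 294, 213 and 205, and POK1 had 44.7, 18.8 and 7.8, 29.9, 65.5 and 48.8 and 64, 45 and 48.4. AT4G14330 had 46.9, 123 and 72.9, 32, 32 and 53.5 and 97, 120.2 and 71.6. PAKRP1, CAP-C and AT4G14330 did not pass between the separate QC harvest and the meristem. With the QC arrays grown with jkd AT4G14330 passed, at -1.03 ± 0.31 (adjusted p = 0.0192).

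In jkd, 15 of 34 differed between QC and meristem, 3 higher and 12 lower, where 47% of all passed (19% higher, 28% lower), with a median of -0.66 beside -0.25. CDC20.1 had 120.2, 88.1 and 116 in the jkd QC and 1012, 584 and 948 in the jkd meristem, and was lower by 2.77 ± 0.31 (adjusted p = 6.65e-05). CYCB1;1 had 74.2, 23.5 and 48.4 and 296, 154 and 269, CYCB1;3 had 64.3, 41 and 84.5 and 357, 191 and 259, and AUR1 had 202, 97 and 128 and 469.9, 387 and 456. These 3 were lower in the jkd QC by 2.01 ± 0.40, 1.84 ± 0.36 and 1.57 ± 0.32, with no overlap between the tissues. Without replicate 2 of the jkd meristem the count of members that passed was 8, and 3960 of all probe sets passed in place of 5385.

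The wild type QC harvests were compared with each other as a check. The separate harvest differed from the arrays grown with jkd in 4 of 33 member probe sets, 2 higher and 2 lower, where 23.1% of all passed (13% higher, 10.1% lower). HIK had 204, 306 and 295 in the separate harvest, 69.1, 72.9 and 83.8 beside jkd, 57, 68.2 and 82.7 in jkd, 207, 214 and 152 in the wild type meristem and 166, 180.2 and 202 in the jkd meristem. The separate harvest was 1.62 ± 0.28 higher (adjusted p = 0.00134), above the meristem on 2 of 3 arrays, while the other QC arrays lay below every meristem array. HIK was also -1.23 ± 0.31 from the meristem in jkd and -1.17 in wild type with the QC arrays grown beside jkd. BUB3.1 was 0.78 ± 0.24 higher in the separate harvest, and MYB3R1 253451_at and UVI4-LIKE were lower by 1.59 ± 0.36 and 0.78 ± 0.27. The call of UVI4-LIKE was lost without any of 5 of the arrays in turn, and that of BUB3.1 without any 1 of the separate QC arrays or replicate 3 of those grown with jkd.

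No member passed between jkd and wild type. In the QC, limma called 0 of 33 members (3 at an unadjusted p under 0.05), where 0.105% of all probe sets passed (0.0872% higher, 0.0174% lower). In the meristem it called 0 of 34 (1 at an unadjusted p under 0.05), where 0.933% passed (0.776% higher, 0.157% lower). For the difference of the jkd effect between the tissues it called 0 of 34 (3 unadjusted), where 0% passed. The share of all probe sets at an unadjusted p under 0.05 was not counted in these comparisons. The members with an unadjusted p under 0.05 in the QC were CYCA2;2 (-1.76 ± 0.56, adjusted p = 0.306), ATK1 (-1.33 ± 0.51, adjusted p = 0.423) and APC8 (0.99 ± 0.43, adjusted p = 0.489). CYCA2;2 had 59.7, 178 and 81 in wild type and 13.8, 3.75 and 46.6 in jkd, which did not overlap. APC8 had 210.2, 110.0 and 163 and 438, 419.6 and 188, with overlap. In the jkd meristem CYCA2;1 was at -0.50 ± 0.21 (adjusted p = 0.511). For CYCB1;1 the difference was 0.07 ± 0.56 in the QC and -0.12 ± 0.26 in the meristem, and for AUR1 0.45 ± 0.44 and -0.18 ± 0.19. With 3 arrays a group and errors near 0.5 log2 units in the QC for these genes, even the difference of CYCA2;2 did not pass.

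Of the remaining named members, the jkd QC arrays gave 4.15, 20.07 and 31.4 for CYCA3;1, 432, 76.6 and 225 for MAD2, 574, 341 and 319.9 for BUB3.1, 65.5, 307 and 258 for EB1C and 49.5, 22.1 and 7.08 for ATK5. The jkd meristem gave 104, 59.6 and 106, 435, 345 and 405, 711, 745 and 869, 415, 269 and 413 and 62.6, 85.3 and 137 for the same genes. The jkd QC arrays spread widely for MAD2 and EB1C and overlapped the jkd meristem in both. For the cytokinesis and chromosome genes the jkd QC gave 396, 770.5 and 284 for TES, 40.4, 50.1 and 76 for POK2, 2.72, 40.2 and 94.9 for POK1, 115, 254 and 217 for PAKRP1, 47.1, 119.9 and 11.5 for AT4G14330, 549, 855 and 829.8 for SYN4, 285, 200.5 and 180.0 for SMC1 and 135, 159 and 140.3 for CAP-C. In the jkd meristem TES had 283, 237 and 267, POK1 43, 32.1 and 43.5, PAKRP1 114, 112 and 147, AT4G14330 45.7, 113 and 96.6, SYN4 366, 309 and 385, SMC1 164, 188 and 162, CAP-C 222, 272 and 244 and APC8 223, 185 and 249. POK2 and SYN4 were higher in all jkd QC arrays than in any jkd meristem array, and both passed. For TES the lowest jkd QC array (283.79) was barely above the highest jkd meristem array (283.22), and TES did not pass. MYB3R1 253451_at passed as well, higher by 1.67 in the jkd QC. It had 102, 141 and 442 there and 48.4, 37.35 and 60.3 in the jkd meristem.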

How the data were processed

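The authors deposited linear signal intensities, made with MAS5 per the submitters' processing notes, with 1 value for each probe set on each array. Not given in the sources used here are the version and scaling target of MAS5, detection calls, genome build and type of array. Per the labels' protocols, protoplasts went directly into extraction buffer, and the RNA was amplified before labelling. The matrix and the value table of the series were compared: 23 columns were equal under their names and 3 as a set, and 0 columns of values were not used. Signals ranged from 0.02 to 42893.39, with a mean after trimming 2% at each end of 251.1 to 257 on every array.

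The deposited intensities were tested as log2(signal + 16), which understates changes of weak genes, on probe sets at or above the 30th percentile of mean signal in the fit (11469 of 16384). The test was limma 3.58.1 under R 4.3.3, with lmFit and a robust eBayes with trend, and Benjamini-Hochberg adjustment over all tested probe sets. The 11 SCR arrays shared a fit, to which the separate QC harvest was added where the QC was compared. The script was tested on simulated data. Alternatives were pseudocounts of 1 and 64, quantile normalization, no filter, plain eBayes, 1 fit of all arrays, a replicate block and leaving out each array. The exchange of QC harvests, the treated arrays alone, each 0 h array left out between 24 h and 96 h, and the test of QC against meristem between genotypes were added after seeing the data. Same-numbered arrays deviated together with correlations from -0.11 to 0.177, so the numbers were not taken as pairs. Members and lists were chosen with earlier results of these data known.

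Given with every array were the 12 members that passed in most comparisons and all that passed between 24 h and 96 h or in the trend. Symbols came from the RefSeq table of assembly TAIR10.1, which holds all 41 loci. Plots used Python 3.11.15 and matplotlib 3.10.9.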

Additional observations from a re-analysis of the deposited data

Results flagged for a closer look

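The difference between QC and meristem was itself compared between jkd and wild type, with the separate wild type QC harvest, in a limma fit added after seeing the data (19.3% of all probe sets passed). Of 34 tested members, 3 passed. HIK differed by -1.677 (adjusted p = 0.00389), ATK1 by -1.809 (adjusted p = 0.0125) and CDC20.1 by -1.041 (adjusted p = 0.0453). In these data the jkd QC and the separate wild type QC are also different harvests, so genotype and harvest cannot be told apart in this test. For HIK the wild type QC arrays grown beside jkd (69.1, 72.9 and 83.8) lay with those of jkd (57, 68.2 and 82.7) and below the separate harvest. For ATK1 the wild type QC gave 61.2, 146 and 112 in the separate harvest and 52.0, 107 and 51.6 beside jkd, and jkd gave 25.6, 5.90 and 23.1. For CDC20.1 the wild type QC gave 204, 280.5 and 239.9 in the separate harvest and 116, 218 and 150.3 beside jkd, and jkd gave 120.2, 88.1 and 116. With the QC arrays grown beside jkd, limma called 0 members for the same difference (3 at an unadjusted p under 0.05), where 0% of all probe sets passed. ATK1 was at -1.31 ± 0.50 (adjusted p = 0.544), CDC20.1 at -0.47 ± 0.41 (adjusted p = 0.845) and HIK at -0.05 ± 0.40 (adjusted p = 0.988).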

How the results depend on the processing

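Of 184 differences that passed, 73 kept their direction and their call under all alternatives tried for them. Over 2381 recomputed values, 1964 kept both, 410 lost the call and 7 changed sign. All 7 came from the QC arrays grown with jkd in place of the separate harvest: MYB3R1 253451_at against the QC at -0.67 (0 h), -0.46 (24 h), -0.60 (48 h), -0.32 (72 h) and -0.28 (96 h), HIK at 0 h (0.21) and CYCB2;2 at 24 h (0.37), none of which passed. The same exchange gave 12 calls at 24 h against the QC, with 2785 over all probe sets in place of 3630. Between 24 h and 96 h, quantile normalization gave 3 calls, 1 fit of all arrays 11 and the treated arrays alone 11. Calls over all probe sets were then 253, 707 and 795, in place of 443. A pseudocount of 1 gave 6 at 96 h against the QC (3159 over all probe sets, in place of 3472). The fit of all arrays gave 12 for wild type QC against meristem (4378 over all, in place of 6690). It gave 1 for jkd against wild type in the QC (436 over all, in place of 12). Plain eBayes gave 2 between QC harvests (2144 over all, in place of 2649). The cause was not tested. As the replicate numbers were not shown to pair the arrays, the replicate block is given only here. It gave 13 calls between 24 h and 96 h, with 935 over all probe sets in place of 443. In the time series, numbers 1 and 5 occur only at 0 h. Under the block each difference from 0 h thus rests on 0 h replicate 3 alone, so its counts are not given. Among the calls against 0 h lost with it were those of AUR1, CYCB1;3 and CYCA3;1 at 72 h and 96 h and of CYCA3;1 and SMC1 at 24 h. Leaving out 1 array gave 9 to 16 calls at 24 h against 0 h, 7 to 15 at 48 h, 10 to 17 at 72 h, 12 to 20 at 96 h, 0 to 11 between 24 h and 96 h and 7 to 13 in the trend. Against the QC it gave 10 to 17 at 0 h, 8 to 16 at 24 h, 5 to 9 at 48 h, 5 to 7 at 72 h and 5 to 8 at 96 h. It gave 15 to 19 for QC against meristem in wild type, 8 to 18 in jkd, 2 to 7 between QC harvests and 0 in the jkd comparisons. Calls over all probe sets moved with the array left out too, such as 3837 to 5587 for QC against meristem in jkd, in place of 5385. Quantile normalization moved the median of all probe sets at 24 h against 0 h from -0.21 to 0.04 and the share of higher calls from 42.96% to 53.41%. Without the low-signal filter the share at 48 h went from 44.51% to 34.22%. Where a treated time or group is left with 1 array, that array is assumed to vary like the others, and the number of arrays limits the precision. Low signals such as those of POK2, ATK1 and CYCB2;2, of CYCB1;1 at 24 h and of CYCA3;1 at 48 h are near background, where sizes depend on the pseudocount.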

Other observations

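A further list of 80 genes of G2, mitosis and cytokinesis that are not among the members has 40 genes on the table, of which 39 were tested in the time series. At 24 h against 0 h, 5 of these rose and 11 fell (48.1% of all probe sets passed), with a median of -0.16. MAP65-4, a microtubule bundling protein of the spindle, fell by 2.19 ± 0.42, CDKB2;1, a kinase of mitotic entry, by 1.10 ± 0.32, and BUBR1, a checkpoint protein, by 1.26 ± 0.44. At 96 h 13 had risen and 2 were lower (52.4% of all), with a median of 0.42, and CAP-D2, a condensin subunit, rose by 3.45 ± 0.41. The trend from 24 h to 96 h passed for 10 genes, all upwards (8.95% of all), among them FZR3, an APC activator, at 0.81 ± 0.12 per 24 h and CDKB2;1 at 0.47 ± 0.11. Between 24 h and 96 h 6 passed, all higher (3.86% of all passed, 1.97% higher).

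In the wild type QC against the meristem, 18 of 38 were lower and 2 higher (58.3% of all), with a median of -0.49. CENH3, the histone of centromeres, was at -1.95 ± 0.20 and CDKB2;1 at -1.20 ± 0.19. Higher were CYCA1;2, at 0.86 ± 0.28, and MAP65-2, at 0.82 ± 0.15. These genes were named for their roles after their values were seen, and the list was drawn up with earlier results of these data known.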
